A study of Mus musculus with 21 samples.

Results

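Colon without tumour from female App NL-G-F knock-in mice was compared with the same tissue from wild-type females, with 3 RNA-seq libraries on each side and every gene of the deposited count table. The comparison was chosen by sample group, with no measured value used to pick its members, and it takes 6 of the 21 libraries of the series. All mice were C57BL/6. The App NL-G-F allele carries the Swedish, Arctic and Beyreuther/Iberian mutations and a humanised amyloid-beta sequence in the endogenous App gene, so the mutant transcript is driven by the gene's own promoter and is not overexpressed by design. The labels call the 6 libraries untreated colon, whereas the series description speaks of tissue beside tumours, or of colon in which no tumour formed, in a study of azoxymethane and dextran sulfate sodium (AOM/DSS), a carcinogen and a colitis-inducing polymer. Age and pooling are not given in the labels. Male normal colon of the same genotypes, again 3 libraries each, was used to set the female differences beside those in the other sex. The series asks what molecular differences accompany the outcome of that tumour regimen in App mutant mice of either sex, and this comparison gives the genotype difference in tumour-free female colon.

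The colon wall holds a mucosa of absorptive colonocytes, mucus-secreting goblet cells, hormone-secreting enteroendocrine cells and tuft cells, all renewed from crypt-base stem cells, above a stroma of fibroblasts, vessels and immune cells and an outer coat of smooth muscle with enteric nerves. Goblet cells fold and cross-link large mucins in the endoplasmic reticulum (ER), and the chaperones of that compartment are induced together by the unfolded protein response. APP is a membrane protein cut by secretases, and one of its products is the amyloid-beta peptide. In a bulk sample of the wall, fewer cells of a type and less RNA per cell cannot be told apart.

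Library totals ran from 6429958 to 26174008 counts in the 3 wild-type female libraries and from 8873380 to 16638666 in the 3 knock-in libraries, and 15936 of 24062 genes were tested. Replicates within a group varied by a biological coefficient of variation of 17.7% in wild-type and 19.2% in knock-in females, against 26.9% and 25.7% in wild-type and knock-in males. The labels do not say that libraries came from separate mice, so p-values measure the spread between these libraries. The count table gives one column name to 2 of the knock-in libraries, which are called a and b here, beside replicate 1. Squamous epithelial genes, 12 keratin and related genes that colon mucosa lacks, summed to 15131 counts in knock-in replicate 1 and 6552 in replicate b, against 76 in replicate a and 55 to 180 in the wild-type libraries. Of the 12 genes, 5 were at 0 counts in replicate a and none in replicate 1. None of the 11 tested ones passed edgeR's test, with 7 at an unadjusted p under 0.05 and 7 called by DESeq2. Counts of calls for most lists described are therefore also given without replicates 1 and b, a step added once the data had been seen. That fit keeps only knock-in replicate a beside the wild-type libraries, so its spread comes from groups with more libraries. Its counts can fall through the loss of libraries alone. Replicate a is also in the main fit, so shared calls or signs are no support. The part of squamous tissue in the results was not tested. Ribosomal precursor RNA (Rn45s) took 2.84% to 3.18% of counts in wild-type and 4.85% to 5.96% in knock-in females, with an exact two-sided permutation p of 0.1, the smallest that 3 against 3 allows. Neat1, a nuclear long RNA of the RNA quality list, fell from 1274, 1132 and 1079 to 462, 686 and 630.4 CPM without overlap (log2 fold change -0.97, adjusted p = 0.0388), a call lost with any 1 library left out (up to 0.137). Its part in the other results was not tested. Library numbers ran from 99 to 101 for wild-type females and started at 138 for the knock-in group, so genotype and order of library numbering cannot be told apart.

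**Figure D1:**
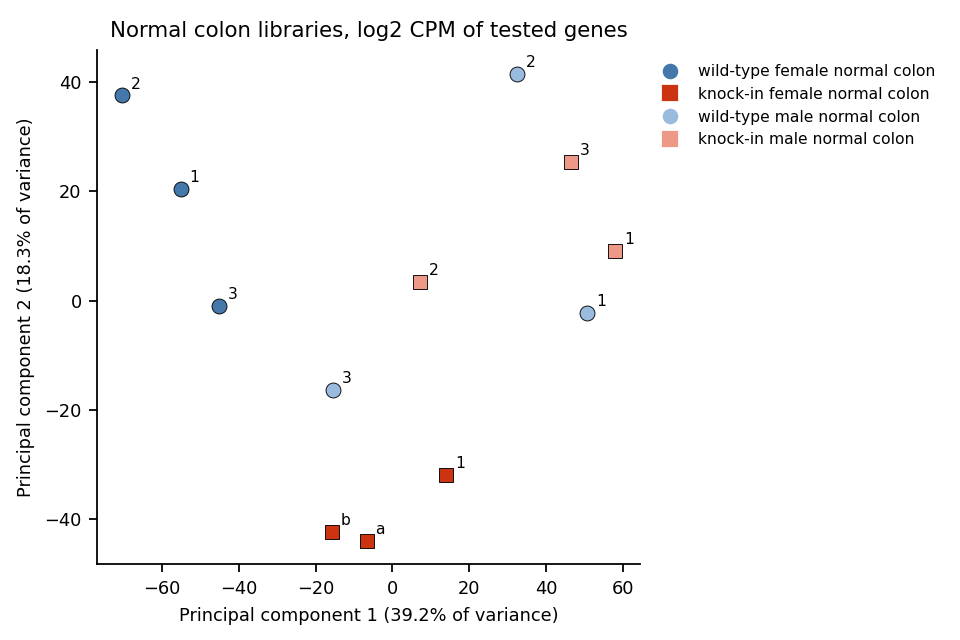
The 12 normal colon libraries on the first 2 principal components of log2 CPM (x axis, 39.2% of variance; y axis, 18.3%), 1 point per library, labelled with its replicate. The wild-type female libraries lie between -70.4 and -45.2 on the first axis, apart from the other 9, which lie between -15.7 and 58.1.

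The wild-type female libraries stood apart from all other normal colon libraries, as the plot of principal components shows. On the first component they lay between -70.4 and -45.2, the knock-in females between -15.7 and 13.9 and the 6 male libraries between -15.4 and 58.1. The second component separated the knock-in females, at -44.0 to -31.9, from the wild-type females at -0.93 to 37.6 and the males at -16.3 to 41.6. Markers of colon were present in both groups. Hoxb13, a homeobox gene of the distal gut, stood at 224, 129 and 206 CPM (counts relative to the TMM-scaled library total) in wild-type females. In knock-in females it stood at 188, 258 and 235 CPM. Vil1, the brush-border protein villin, stood at 445 to 636 CPM in all 6. These markers do not exclude other tissue in a library, such as the squamous genes counted in knock-in replicates 1 and b. Xist, the RNA of the inactive X chromosome, stood at 2988 to 3751 CPM in wild-type and 1715 to 2429 CPM in knock-in females without overlap, but did not pass the test (log2 fold change -0.76 ± 0.63, adjusted p = 0.443). No female library had more than 2 counts in any of 4 Y-linked genes.

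The knock-in females differed from the wild-type females in 2545 of the 15936 genes tested, 16.0%, by edgeR's quasi-likelihood test with a Benjamini-Hochberg adjusted p under 0.05. Of these, 1429 genes were higher in the knock-in, 8.97% of those tested, and 1116 were lower, 7.0%. The genes that rose did so by a median log2 fold change of 1.04 and those that fell by -0.621. A change of at least 2-fold was reached by 765 of the higher and 242 of the lower genes. The median over all genes tested was 0.015. All 3 knock-in libraries lay above all 3 wild-type ones for 3124 genes (19.6%) and below for 2906 (18.2%). With any 1 library left out, 1022 to 2745 genes passed: 1203 without wild-type replicate 1, 1057 without replicate 2 and 1022 without knock-in replicate a. The fit without knock-in replicates 1 and b leaves 1 knock-in library, so its count of calls is not set beside these. The authors' deposited table calls 3028 genes for this pair of groups, and 2534 of the 2545 genes were also called there, all with the same sign. The direction split depended on scaling: 56.1% of calls were higher with TMM, 72.8% with library totals, with which the median of all genes was 0.1, and 38.9% with offsets for GC content and transcript length. Higher genes had a median GC content of 54.3% and lower genes 45.3%, against 49.8% over all genes tested. With those offsets 2520 genes passed, 1672 of them among the 2545 and all with the same sign.

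**Figure D2:**
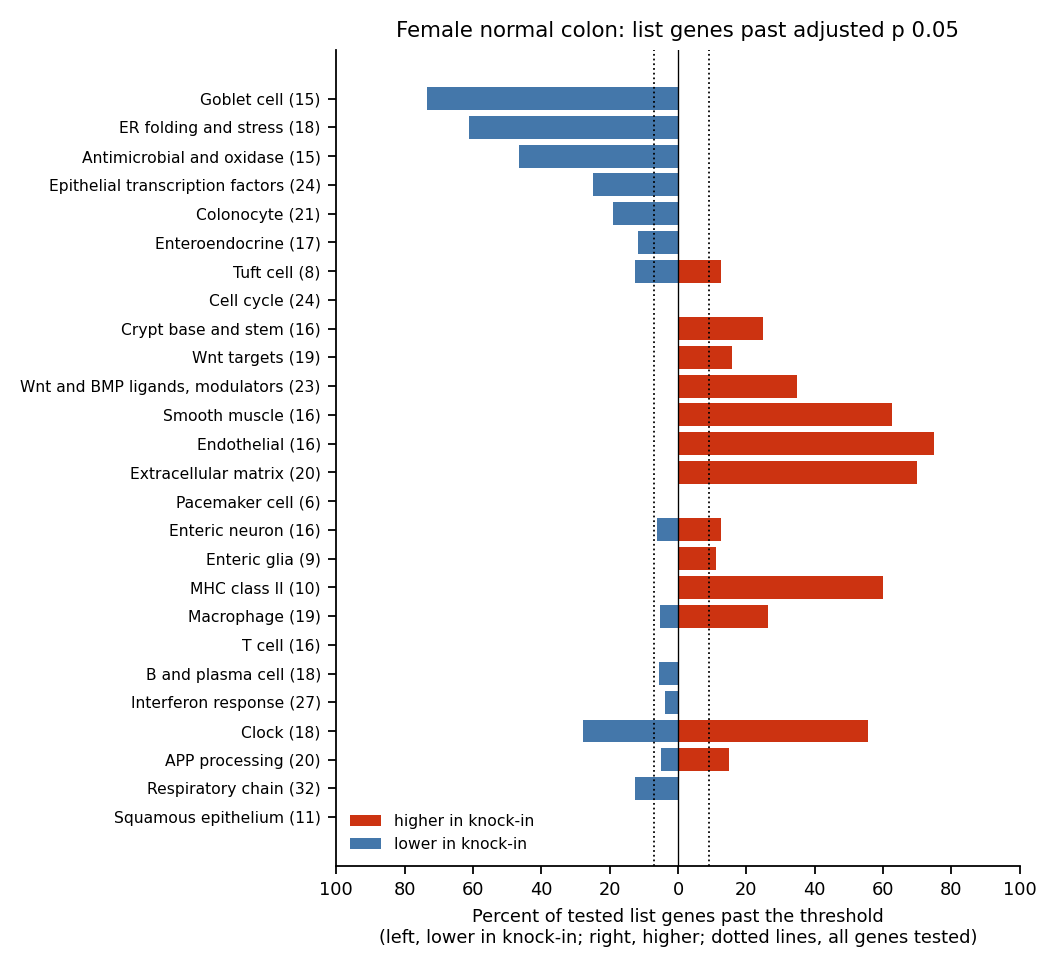
Percent of the tested genes of each list (number in brackets) that passed the threshold in knock-in against wild-type females, lower to the left and higher to the right, with dotted lines at 7.0% and 8.97%, the shares of all genes tested. Goblet, ER and antimicrobial lists extend to the left, and smooth muscle, endothelial, matrix and MHC class II lists to the right.

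Goblet cell genes were lower in the knock-in females. Of 15 tested goblet genes, 11 fell and none rose, with a list median of -1.50, against 7.0% lower and a median of 0.015 over all genes. Summed over the list, the 3 wild-type libraries stood at 50664, 38664 and 25136 CPM and the knock-in libraries between 10882 and 11856 CPM, so every knock-in library lay below the lowest wild-type one. Muc2, the main gel-forming mucin of the colon, averaged 13541 ± 5541 CPM (SD, n = 3) in wild-type and 3409 ± 64.1 CPM in knock-in females, with a log2 fold change of -1.99 and a standard error (SE, the ± of every fold change) of 0.45 (adjusted p = 0.00799). Fcgbp, a mucus-binding protein, averaged 20121 ± 6679 and 6403 ± 527 CPM (log2 fold change -1.65 ± 0.33, adjusted p = 0.00341). These 2 genes were chosen after their values were seen, as the most abundant of the list.

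The 4 goblet genes taken by the smallest p-value were lower in every knock-in library than in any wild-type one. Tff3, a trefoil peptide of the mucus layer at chr17:31125306-31129611 (GRCm38.p6), stood at 1240, 1158 and 761 CPM in wild-type and at 333, 405 and 383 CPM in knock-in females, a log2 fold change of -1.50 ± 0.28 (adjusted p = 0.00206). Its groups did not overlap, and the lowest wild-type library was replicate 3. Agr2, the ER disulfide isomerase needed for mucin folding, stood at 520, 581 and 382 against 207, 177 and 227 CPM, a log2 fold change of -1.28 ± 0.22 (adjusted p = 0.00121). Sytl2, a synaptotagmin-like protein of secretory granule traffic, had 286, 261 and 154 against 81.7, 73.3 and 85.3 CPM (log2 fold change -1.55 ± 0.25). Clca1, a secreted metalloprotease of mucus, had 25.2, 23.0 and 18 against 9.76, 8.77 and 4.21 CPM (log2 fold change -1.54 ± 0.29). All 4 kept their call with every library left out in turn. Of the transcription factors that specify the lineage, Gfi1 fell (log2 fold change -1.08), whereas Atoh1 (-0.55, adjusted p = 0.335) and Spdef (-0.92, adjusted p = 0.0922) did not pass the test. The list gave 7 lower genes without wild-type replicate 1 and between 8 and 12 with each other library left out. Without knock-in replicates 1 and b, 2 passed and the median was -1.38.

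Chaperones and folding enzymes of the ER were lower alongside, with 61.1% of the list called against 7.0% lower over all genes tested. Of 18 tested genes of ER folding and stress, 11 fell and none rose, with a median of -0.794. Hspa5, the chaperone BiP at chr2:34772090-34776529, stood at 672, 1192 and 399 CPM in wild-type and at 298, 253 and 283 CPM in knock-in females, a log2 fold change of -1.44 ± 0.28 (adjusted p = 0.00295). Wild-type replicate 2 was the highest and replicate 3 the nearest to the knock-in group. Pdia6, a protein disulfide isomerase, had 198, 224 and 137 against 90.5, 89.7 and 90.1 CPM (log2 fold change -1.05 ± 0.18, adjusted p = 0.00126). Dnajc3, a BiP co-chaperone, had 233, 288 and 160 against 132, 126 and 131 CPM, and the disulfide isomerase Pdia4 had 195, 265 and 155 against 116, 104 and 117 CPM, both without overlap. Hsp90b1, the ER form of the HSP90 chaperone, fell by 1.14 on the log2 scale (adjusted p = 0.00444), and Xbp1, the transcription factor activated by splicing in this response, fell by 0.78 (adjusted p = 0.00739). Of the transcription factor Atf4 and genes it is known to control, Asns fell by 1.12, whereas Atf4 itself had a log2 fold change of 0.15 (adjusted p = 0.427), Ddit3 of -0.06 (adjusted p = 0.892) and Trib3 of 0.69 (adjusted p = 0.456). Without wild-type replicate 2, 6 genes of the list passed. Without knock-in replicates 1 and b, 2 passed, with a median of -0.897.

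The ER stress response element, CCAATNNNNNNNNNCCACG, was searched on both strands in the 250 bases before the transcription start of RefSeq genes (GRCm38.p6). It was found in 6 of the 16 ER list genes with a promoter sequence, namely Hspa5, Hsp90b1, Dnajc3, Pdia6, Calr and Creld2, and in 0.13% of 27025 genes of the promoter table. The first 4 passed the test, whereas Calr (log2 fold change -0.48, adjusted p = 0.0554) and Creld2 (-0.70, adjusted p = 0.0638) did not. A match is a description of the sequence. The upstream stretches of those that fell are printed 5′ to 3′ on the gene's strand, because the genes moved together, with the matched element in capitals. They lie at chr2:34771840-34772089 (Hspa5, plus strand), chr12:17266339-17266588 (Pdia6, plus), chr14:118937682-118937931 (Dnajc3, plus) and chr10:86705445-86705694 (Hsp90b1, minus), where Hsp90b1 holds the element once on each strand.
Hspa5: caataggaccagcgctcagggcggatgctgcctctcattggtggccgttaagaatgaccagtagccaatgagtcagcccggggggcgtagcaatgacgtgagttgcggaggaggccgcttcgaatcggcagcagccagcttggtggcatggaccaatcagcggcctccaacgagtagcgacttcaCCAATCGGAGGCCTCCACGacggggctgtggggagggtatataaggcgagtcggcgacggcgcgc
Pdia6: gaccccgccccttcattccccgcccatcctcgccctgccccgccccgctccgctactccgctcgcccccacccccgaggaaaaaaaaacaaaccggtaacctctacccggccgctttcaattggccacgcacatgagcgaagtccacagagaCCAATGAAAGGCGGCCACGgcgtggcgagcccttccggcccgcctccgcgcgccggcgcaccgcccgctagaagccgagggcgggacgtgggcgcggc
Dnajc3: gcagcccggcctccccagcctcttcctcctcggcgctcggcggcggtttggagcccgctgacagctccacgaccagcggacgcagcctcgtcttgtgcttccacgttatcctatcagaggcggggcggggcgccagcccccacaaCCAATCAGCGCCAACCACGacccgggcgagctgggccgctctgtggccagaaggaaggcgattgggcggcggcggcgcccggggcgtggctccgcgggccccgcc
Hsp90b1: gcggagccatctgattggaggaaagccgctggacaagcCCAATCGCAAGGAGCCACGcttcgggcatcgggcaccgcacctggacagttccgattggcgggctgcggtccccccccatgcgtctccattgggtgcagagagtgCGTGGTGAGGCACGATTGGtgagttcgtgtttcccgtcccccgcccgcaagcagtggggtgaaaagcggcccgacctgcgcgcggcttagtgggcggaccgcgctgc
The element begins 65 bases before the start of Hspa5, 98 bases before that of Pdia6 and 105 bases before that of Dnajc3.

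Genes of epithelial defence were lower in the knock-in, with 46.7% of the list called against 7.0% lower over all genes tested. Of 15 tested antimicrobial and oxidase genes, 7 fell and none rose, with a median of -1.82. The list shares Retnlb and Ang4 with the goblet list. Duox2, the dual oxidase that makes hydrogen peroxide at the apical surface, stood at 1087, 917 and 509 CPM in wild-type and at 254, 127 and 96.1 CPM in knock-in females, a log2 fold change of -2.40 ± 0.41 (adjusted p = 0.00143). Duoxa2, its maturation factor and neighbour at the same locus, had 177, 171 and 81.8 against 41.2, 15.1 and 7.12 CPM (log2 fold change -2.75 ± 0.55), and reads at the shared locus may not be fully separable. Nox1, the colonic NADPH oxidase, had 56.8, 48.9 and 39.0 against 17.2, 10.8 and 7.89 CPM (log2 fold change -2.01 ± 0.45, adjusted p = 0.00755). All 3 oxidase genes were below every wild-type library in all 3 knock-in libraries. Pigr, which carries IgA across the epithelium, fell by 0.60 (adjusted p = 0.0263). The lectins Reg3b and Reg3g had log2 fold changes of -2.14 and -1.82 without passing (adjusted p = 0.529 and 0.555), and Lcn2 was at 0.11 (adjusted p = 0.967). Between 3 and 7 of these genes passed with a single library left out, the count falling to 3 without wild-type replicate 1 or knock-in replicate a and to 4 without wild-type replicate 2 or knock-in replicate 1 or b, and 2 passing without both of knock-in replicates 1 and b.

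The absorptive programme changed less broadly. Of 21 colonocyte genes, 4 fell and none rose, 19.0% against 7.0% lower over all genes tested, with a median of -0.504. By sign 18 of the 21 were lower. Without overlap 9 of them were lower, against 18.2% of all genes tested. The list summed to 8518 to 14004 CPM in wild-type and 7584 to 8250 CPM in knock-in libraries. Aqp4, a basolateral water channel, stood at 356, 767 and 216 CPM in wild-type and at 86.4, 40.2 and 34.1 CPM in knock-in females, a log2 fold change of -3.05 ± 0.54 (adjusted p = 0.00197). Transporters typical of the colon surface did not pass the test, with Slc26a3 at -0.07 (adjusted p = 0.960), Car1 at 0.46 (adjusted p = 0.722) and Aqp8 at -0.61 (adjusted p = 0.406). The other 3 genes that fell were the adhesion molecules Ceacam1 and Ceacam20, by 0.78 and 0.65 on the log2 scale, and Vil1, by 0.38. Reads of Ceacam1 may be shared with its close copy Ceacam2. Only 1 or 2 list genes passed without wild-type replicate 1 or 2 or knock-in replicate a or b, and 1 without knock-in replicates 1 and b. Among 24 epithelial transcription factors, 6 fell and none rose, and 3 fell without knock-in replicates 1 and b. Isx, an intestine-specific homeobox gene that represses vitamin A uptake, fell from 36.0, 62.3 and 13.9 CPM to 1.61, 3.60 and 2.53 CPM, a log2 fold change of -3.90 ± 0.80 (adjusted p = 0.00493). Nr1h4, the bile acid receptor FXR, had 90.9, 128 and 74.5 against 47.8, 33.3 and 43.7 CPM (log2 fold change -1.23 ± 0.27). Foxa3 and Elf3 also fell, by 0.95 and 0.59 on the log2 scale, and Hnf4a did not pass (-0.15, adjusted p = 0.524).

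Hormone and tuft cell genes gave few calls. Insl5, a hormone of colonic L cells, and Rfx6, an enteroendocrine transcription factor, were the 2 of 17 enteroendocrine genes that fell, by 1.96 and 1.77 on the log2 scale. That was 11.8% of the list, against 7.0% lower over all genes tested. By sign 15 of the 17 were lower, with a list median of -0.553. The list summed to 298 to 474 CPM in wild-type and 157 to 254 CPM in knock-in libraries. The call of Rfx6 was lost without knock-in replicate a (adjusted p = 0.0543), and that of Insl5 without wild-type replicate 1 or 2 or knock-in replicate 1 or a (up to 0.104). Ppy, pancreatic polypeptide, was outside the list and among the 12 largest decreases, at 16.5, 35.4 and 14.2 against 3.63, 4.61 and 1.84 CPM. Of 24 cell cycle genes none passed edgeR's test, 5 had an unadjusted p under 0.05, 1 passed in DESeq2 and 5 in limma voom. Mki67 stood at 335, 350 and 317 against 314, 277 and 299 CPM, a log2 fold change of -0.17 ± 0.21 (adjusted p = 0.621). The crypt-base list gave 4 higher and no lower genes of 16: Ascl2, a stem cell transcription factor, rose from 1.86, 3.21 and 2.79 to 5.54, 8.21 and 6.35 CPM (log2 fold change 1.41 ± 0.30, adjusted p = 0.0044), while Lgr5 did not pass (0.30, adjusted p = 0.777). Olfm4, a further crypt marker, rested on 1 library, with 15, 2 and 2205 counts in knock-in replicates 1, a and b, and its log2 fold change fell from 8.65 to 0.78 (adjusted p = 0.886) without replicates 1 and b. Without wild-type replicate 1 or 2 or knock-in replicate a or b, 1 or 2 genes of this list passed, and 2 without knock-in replicates 1 and b.

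**Figure D3:**
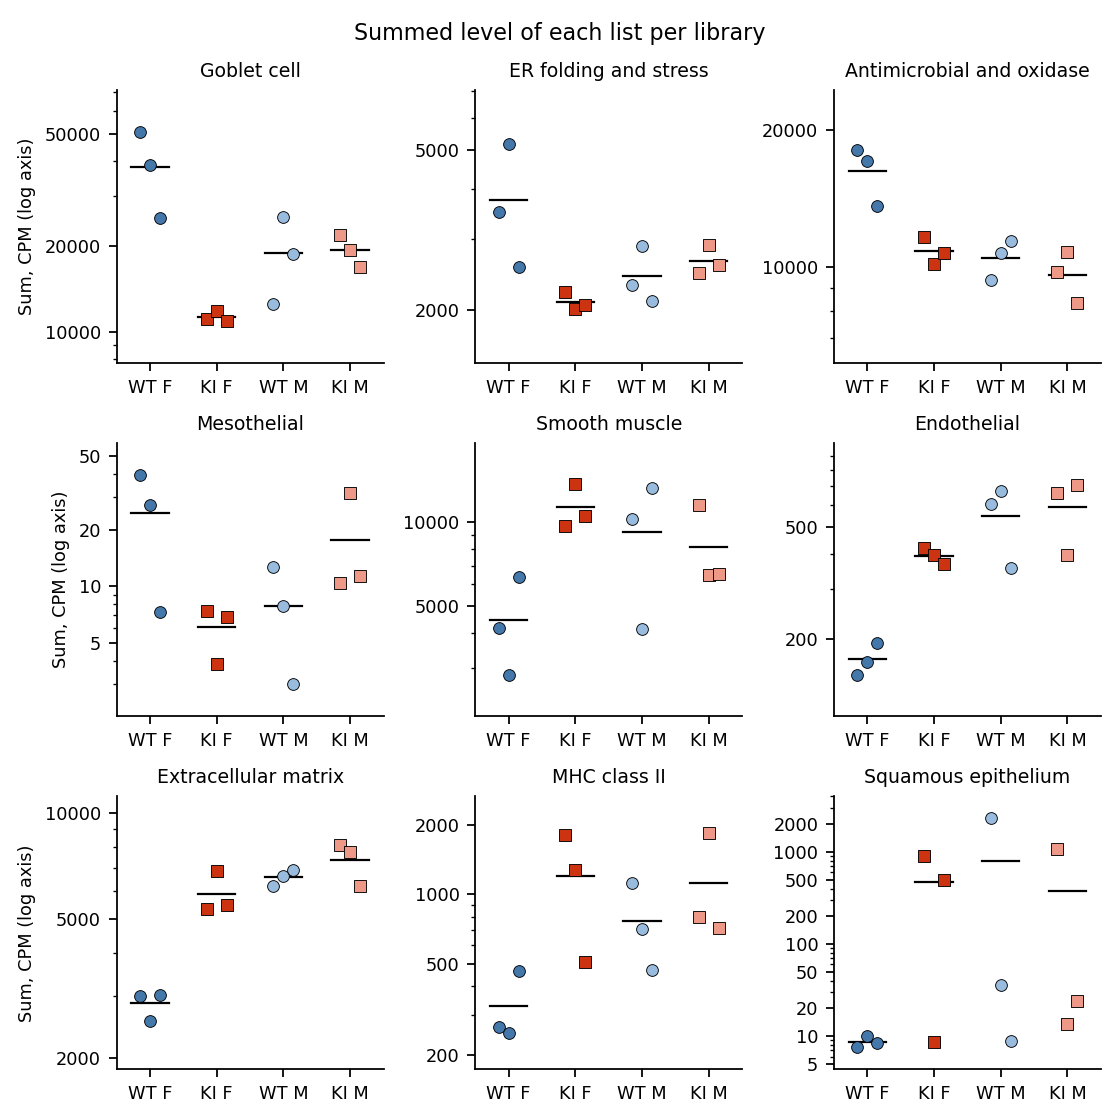
Summed CPM of the tested genes of 9 lists (log axis) in each library of wild-type (WT) and knock-in (KI) normal colon of females (F) and males (M), 1 point per library and a line at the group mean. In the goblet, ER, antimicrobial, smooth muscle, endothelial, matrix and MHC class II panels the wild-type and knock-in females do not overlap.

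Genes of vessels rose in the knock-in females. Of 16 tested endothelial genes, 12 rose and none fell, with a median of 1.05, and the list summed to 149 to 193 CPM in wild-type and 369.6 to 420.0 CPM in knock-in libraries. Plvap, the diaphragm protein of fenestrated vessels at chr8:71497753-71511806, stood at 6.34, 5.85 and 6.50 CPM in wild-type and at 38.6, 47.7 and 35.9 CPM in knock-in females, a log2 fold change of 2.70 ± 0.29 (adjusted p = 2.77e-05). The wild-type values lay within 1 CPM of each other and far below all knock-in values. Eng, the TGF-beta co-receptor endoglin, had 5.88, 7.94 and 9.91 against 31.5, 34.1 and 26.3 CPM (log2 fold change 1.99 ± 0.24, adjusted p = 6.21e-05). Flt1, a receptor of vascular endothelial growth factor, had 5.11, 6.55 and 6.50 against 20.3, 21.6 and 21.2 CPM, and the endothelial receptor Tie1 had 4.44, 5.57 and 6.04 against 17.1, 16.4 and 16.2 CPM. Of the lymphatic genes in the list, Flt4 rose by a log2 fold change of 1.32, while Lyve1 (0.86, adjusted p = 0.122) and Prox1 (0.73, adjusted p = 0.523) did not pass. With each library left out, 9 to 12 genes of the list passed, and 6 passed without knock-in replicates 1 and b.

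Matrix genes rose in the same libraries, with 70.0% of the list called against 8.97% higher over all genes tested. Of 20 tested genes of the extracellular matrix, 14 rose and none fell, with a median of 1.10, and 10 to 15 passed with each library left out. Without knock-in replicates 1 and b, 13 passed. Fn1, fibronectin at chr1:71585473-71653280, stood at 421, 340 and 417 CPM in wild-type and at 1064, 1463 and 1080 CPM in knock-in females, a log2 fold change of 1.61 ± 0.21 (adjusted p = 0.000129). Col6a2, a chain of microfibrillar collagen, had 53.0, 42.2 and 48.3 against 125, 193 and 167 CPM (log2 fold change 1.75 ± 0.21), with Col6a1 beside it on chromosome 10 at 1.50 ± 0.21. Col4a2, a basement membrane chain, had 62.8, 54.8 and 59.5 against 184, 255 and 180 CPM (log2 fold change 1.80 ± 0.24). Fibrillar Col1a1 and Col1a2 rose by log2 fold changes of 1.52 and 1.38. Not all stromal genes rose: Dcn (0.33, adjusted p = 0.427), Lum (0.04, adjusted p = 0.967) and Postn (0.12, adjusted p = 0.742) did not pass. With GC and length offsets 11 of the 20 passed and the median was 0.793.

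Contractile genes of smooth muscle were higher, with 62.5% of the list called against 8.97% higher over all genes tested. Of 16 tested genes, 10 rose and none fell, with a median of 1.42, and the list summed to 2837 to 6383 CPM in wild-type and 9704 to 13666 CPM in knock-in libraries. Lmod1, leiomodin, stood at 19.7, 13.1 and 20.9 CPM in wild-type and at 52.3, 83.4 and 83.2 CPM in knock-in females, a log2 fold change of 2.02 ± 0.40 (adjusted p = 0.00355). Myocd, the coactivator that drives the contractile programme, had 11.6, 10.9 and 18.4 against 34.1, 39.8 and 32.3 CPM (log2 fold change 1.39 ± 0.26, adjusted p = 0.00178). Smtn, smoothelin, had 77.2, 42.6 and 114 against 179, 271 and 219 CPM. In all 3 genes wild-type replicate 2 was the lowest library. The abundant Myh11 (1.56, adjusted p = 0.0757), Des (1.52, adjusted p = 0.112) and Tagln (0.74, adjusted p = 0.286) did not pass. The count fell to 3 without wild-type replicate 1 or 2 or knock-in replicate a, and was also 3 without knock-in replicates 1 and b, where the median was 1.67. Genes of the interstitial pacemaker cells did not pass, with none of 6 called by edgeR, DESeq2 or limma voom and none at an unadjusted p under 0.05: Ano1 stood at 426 to 508 CPM in wild-type and 459 to 520 CPM in knock-in females.

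Enteric nerve and serosal genes gave mixed results. Of 16 neuronal genes 18.8% were called, against 16.0% of all genes tested. Gap43, a growth cone protein, and Hand2, an enteric neuron transcription factor, rose and Tac1, the substance P precursor, fell. None of these calls remained without wild-type replicate 1. Mesothelial genes, which mark the serosal cover of the gut, fell for 4 of 7 members, 57.1% against 7.0% lower over all genes tested. Upk3b had 182, 46 and 1 counts in wild-type replicates 1, 2 and 3 and none in the knock-in libraries, at least 19.1-fold lower against a floor of 3 counts per library. Lrrn4 had 114, 31 and 1 counts against 0, 0 and 2, so wild-type replicates 1 and 2 carried the difference. The median log2 fold change of the list was -2.06. At most 1 mesothelial gene passed without wild-type replicate 1 or 2 or without any 1 of the knock-in libraries, and none of the 7 passed without knock-in replicates 1 and b.

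Antigen-presentation genes of MHC class II were higher, with 60.0% of the list called against 8.97% higher over all genes tested. Of 10 tested genes, 6 rose and none fell, with a median of 1.64, and the list summed to 250 to 462 CPM in wild-type and 508 to 1813 CPM in knock-in libraries. H2-Ab1, a class II beta chain, stood at 22.1, 19.8 and 36.5 CPM in wild-type and at 177, 165 and 60.4 CPM in knock-in females, a log2 fold change of 2.37 ± 0.53 (adjusted p = 0.00801). H2-DMa, which acts in the loading of peptides on class II molecules, had 3.64, 2.51 and 4.03 against 32.0, 21.2 and 8.80 CPM (log2 fold change 2.60 ± 0.57, adjusted p = 0.00611). Cd74, the invariant chain, had 110, 102 and 175 against 972, 596 and 240 CPM, and lost its call without wild-type replicate 1 or 2 or knock-in replicate 1 or a (adjusted p up to 0.0963). In all 3 genes knock-in replicate b was the nearest to the wild-type libraries and the groups did not overlap. Reads of closely related class II genes may be shared, since the counting of reads with several matches is not stated. The count fell to 2 without wild-type replicate 1 or 2 or knock-in replicate 1 or a, and was 2 without knock-in replicates 1 and b.

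Other immune lists gave mixed results. Of 16 T cell genes none passed edgeR's test, with 2 at an unadjusted p under 0.05 and 1 called by each of DESeq2 and limma voom, and of 27 interferon-response genes only Mx1 did, lower in the knock-in, with groups that overlapped and a call lost without wild-type replicate 1 or 2 or knock-in replicate a or b (adjusted p up to 0.126). The macrophage list had a median of 0.646 and 31.6% of its genes past the threshold, but its calls depended on single libraries: 5 of 19 macrophage genes rose, namely Cx3cr1, Cd68, Itgax, Trem2 and Retnla, and none of these passed without wild-type replicate 1 or 2 or knock-in replicate 1 or a, whereas 11 did without wild-type replicate 3. None of the 19 passed edgeR's test without knock-in replicates 1 and b. Cd14, the lipopolysaccharide co-receptor, fell from 78.8, 80.7 and 53.1 CPM to 35.7, 24.2 and 25 CPM (log2 fold change -1.32 ± 0.30, adjusted p = 0.00699) and kept its call with each library left out. The B cell list was higher by sign in 15 of 18 genes, with a median of 1.25, but no gene rose by edgeR's test: Cd79a, a chain of the B cell receptor complex, had a log2 fold change of 1.90 (adjusted p = 0.0977). DESeq2 called 1 of them higher and limma voom 2, and 6 genes had an unadjusted p under 0.05 in either direction. The 1 B cell list gene that passed ran the other way. Igj, the joining chain of secreted IgA, fell from 320, 591 and 616 to 147, 84.5 and 79.5 CPM (log2 fold change -2.29, adjusted p = 0.0439), a call lost with any 1 library left out (adjusted p up to 0.155).

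Secreted signals of the stroma were higher, with 34.8% of the list called against 8.97% higher over all genes tested. Of 23 tested Wnt and BMP ligands and modulators, 8 rose and none fell, 6 to 8 passed with each library left out and 5 without knock-in replicates 1 and b. Bmp4, a BMP ligand of the villus and crypt stroma, stood at 7.74, 10.3 and 9.29 CPM in wild-type and at 22.2, 27.9 and 23.5 CPM in knock-in females, a log2 fold change of 1.44 ± 0.25 (adjusted p = 0.00118). Wnt5b, a non-canonical Wnt ligand, had 0.55, 0.98 and 0.15 against 3.51, 4.27 and 2.76 CPM (log2 fold change 2.61 ± 0.43, adjusted p = 0.000819). Sfrp2, a secreted Wnt antagonist, had 4.61, 5.16 and 6.50 against 13.3, 16.6 and 13.9 CPM. All 3 were without overlap. The R-spondins and canonical targets gave fewer calls: Rspo3 (0.75, adjusted p = 0.235) and Axin2 (0.65, adjusted p = 0.32) did not pass. Of 19 Wnt targets 3 rose, 15.8% against 8.97% higher over all genes tested. By sign all 19 were higher, with a list median of 0.908. Without overlap 9 of them were higher, against 19.6% of all genes tested. The list summed to 333 to 368 CPM in wild-type and 457 to 619 CPM in knock-in libraries. Among the 3 that passed was Nkd2, a Wnt feedback gene, from 3.85, 3.07 and 4.18 to 11.2, 20.1 and 15.3 CPM.

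Output genes of the circadian clock differed widely. Of 18 clock genes tested, 10 rose and 5 fell, 83.3% against 16.0% of all genes tested. The PAR bZIP factor Dbp stood at 1.27, 1.67 and 2.32 CPM in wild-type and at 61.5, 76.6 and 10.5 CPM in knock-in females, a log2 fold change of 4.89 ± 0.65 (adjusted p = 0.000216). Its relatives Tef and Hlf rose as well, Tef from 22.4, 21.6 and 23.8 to 177, 177 and 59.3 CPM and Hlf from 2.16, 1.11 and 2.17 to 19.2, 19.7 and 10.9 CPM. For all 3 genes knock-in replicate b was the lowest of its group and still above every wild-type library. In males, Dbp stood at 3.45, 1.87 and 6.27 against 17.9, 31.5 and 17.7 CPM and Tef at 37.0, 21.3 and 47.6 against 80.5, 114 and 85.3 CPM, again without overlap. Their male log2 fold changes of 2.56 and 1.40 had unadjusted p-values of 0.000314 and 0.000711 by edgeR and did not pass after adjustment, and the difference between the sexes did not pass either (adjusted p = 0.149 and 0.197). The hour of tissue collection is not in the labels, and its part in the result was not tested. With each library left out, 9 to 11 clock genes were higher, and the number lower ran from 1 to 5, being 1 without wild-type replicate 1 or 2 or knock-in replicate 1 or a. The counts were 9 higher and 4 lower without knock-in replicates 1 and b.

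App itself did not pass the test. App (chr16:84952666-85175255) stood at 568, 470 and 492 CPM in wild-type and at 528, 526 and 505 CPM in knock-in females, a log2 fold change of 0.03 ± 0.16 (adjusted p = 0.933). Because the knock-in alters the sequence and not the presence of the transcript, this level does not check the genotype labels. Of 20 genes of APP processing and clearance, 3 rose and 1 fell, where 8.97% of all genes tested were higher and 7.0% lower. By sign 10 of the list were higher and 10 lower, with a list median of -0.0349, so the list did not move as a set. Lrp1, an endocytic receptor that clears amyloid-beta, stood at 435, 496 and 531 CPM in wild-type and at 765, 945 and 866 CPM in knock-in females, a log2 fold change of 0.82 ± 0.15 (adjusted p = 0.00158) that did not pass with GC and length offsets (adjusted p = 0.231). Adam17, an alpha-secretase, fell from 82.8, 77.3 and 70.0 to 52.6, 51.3 and 54.3 CPM, and lost its call without wild-type replicate 1 or knock-in replicate a (adjusted p up to 0.0602). Mme, neprilysin, rose from 1.18, 0.70 and 2.94 to 8.81, 8.21 and 10.8 CPM, a call lost without wild-type replicate 1 or 2 (up to 0.0948), and Ece1, an endothelin-converting enzyme, rose by a log2 fold change of 0.50, which did not pass with GC and length offsets (adjusted p = 0.369). With those offsets 1 gene of the list was higher and 1 lower, and without knock-in replicates 1 and b 1 was higher and none lower. The beta-secretase Bace1 (0.14, adjusted p = 0.567) and the alpha-secretase Adam10 (-0.50, adjusted p = 0.0671) did not pass. Of the 20 genes nearest App on chromosome 16, 10 on each side, 1 rose and 2 fell, 15.0% against the 16.0% of all genes tested.

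**Figure D4:**
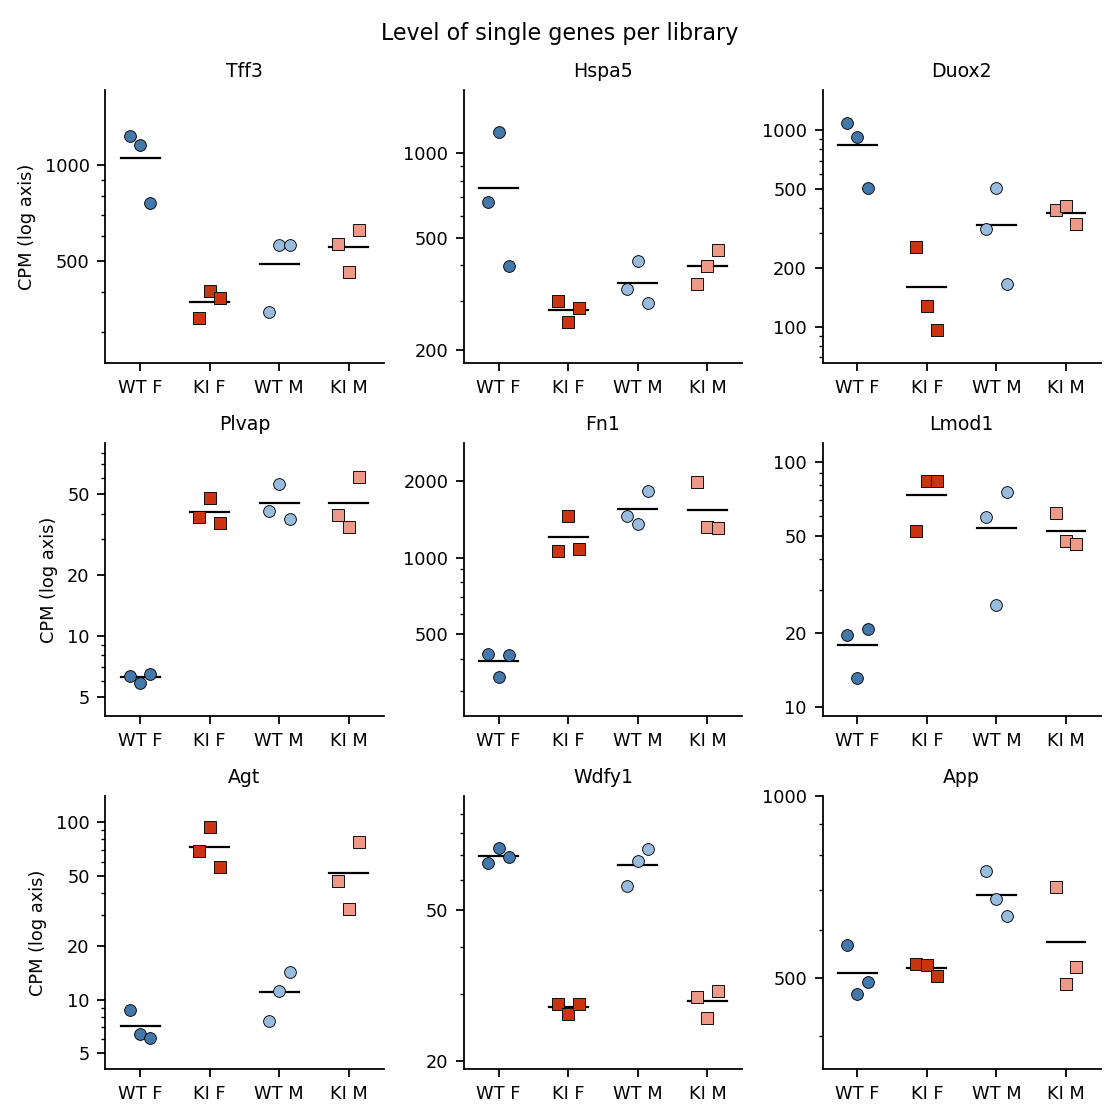
CPM of 9 genes (log axis, a scale per panel) in each library of wild-type (WT) and knock-in (KI) normal colon of females (F) and males (M), 1 point per library and a line at the group mean. Agt and Wdfy1 separate the genotypes in both sexes, whereas for Tff3, Plvap and Fn1 the wild-type females lie apart from the other 3 groups.

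Agt and Wdfy1 were the genes that passed the test in both sexes. Agt, angiotensinogen, the precursor of the angiotensin peptides (chr8:124556587-124569706), stood at 8.75, 6.41 and 6.04 CPM in wild-type and at 68.6, 94.0 and 56.1 CPM in knock-in females, a log2 fold change of 3.33 ± 0.30 (adjusted p = 7.59e-06). In males it stood at 7.56, 11.2 and 14.3 against 46.6, 32.3 and 76.9 CPM, a log2 fold change of 2.25 (adjusted p = 0.00184). Wdfy1, an endosomal FYVE protein (chr1:79702262-79776143), fell from 66.7, 73.0 and 68.9 to 28.3, 26.6 and 28.3 CPM in females (log2 fold change -1.32 ± 0.14, adjusted p = 2.75e-05) and from 57.8, 67.3 and 72.4 to 29.5, 26.0 and 30.6 CPM in males (-1.20, adjusted p = 0.00104). The groups did not overlap in either sex. The difference of the genotype effect between the sexes was 1.08 for Agt (adjusted p = 0.154) and -0.13 for Wdfy1 (adjusted p = 0.788), neither past the threshold. Anpep, an aminopeptidase of angiotensin breakdown, rose in females and differed between the sexes in its genotype effect: it went from 9.0, 9.76 and 14.2 to 28.8, 36.1 and 35.1 CPM, with 20.3 to 30.0 CPM in all male libraries (difference of effects 1.55, adjusted p = 0.00366).

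In males, 2 of 15936 genes passed the same test, 0.0126%: Agt was higher and Wdfy1 lower, each 0.00628% of those tested. The genotype effect differed between the sexes for 405 genes, 2.54%, being more positive in females for 281 (1.76%) and more negative for 124 (0.778%). Where the females differed, the pooled male mean mostly lay closer to the knock-in females. This held for 86.5% of the 1429 higher and 87.4% of the 1116 lower genes. These genes were picked by the female difference, and the same share over all genes tested was not determined. Both percentages therefore describe the called genes without a background beside them. The mean of all 6 male libraries was compared in CPM with the 2 female means, and the male genotypes were not assessed apart. Closer does not mean alike, since the second principal component set the knock-in females apart from the males. Plvap stood at 37.5 to 56.3 CPM in wild-type and 34.4 to 60.9 CPM in knock-in males, with a difference of effects of 2.71 (adjusted p = 0.00249). Fn1 stood at 1310 to 1980 CPM in all 6 male libraries (difference 1.62, adjusted p = 0.00829), and Aqp1, a water channel of vessels, at 44.3 to 71.6 CPM in males against 21 to 31.9 in wild-type and 65.7 to 79.2 in knock-in females (difference 1.70, adjusted p = 0.00249). Hspa5 stood at 295 to 453 CPM in males (difference -1.64, adjusted p = 0.0351), and Tff3 at 347 to 627 CPM (difference -1.67, adjusted p = 0.0292). Among the lists, 6 endothelial, 6 matrix, 5 goblet and 5 ER genes had a different effect in the 2 sexes by this test. Squamous genes also varied among the male libraries, from 89 to 49130 counts in wild-type and 215 to 11645 in knock-in. With a female or male library left out, the number of genes with a different effect ran from 91 to 614. The lowest came without knock-in female replicate a and the highest without wild-type female replicate 3. It was 110 and 120 without wild-type female replicates 2 and 1, 111 without wild-type male replicate 1 and 148 without knock-in male replicate 2.

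**Figure D5:**
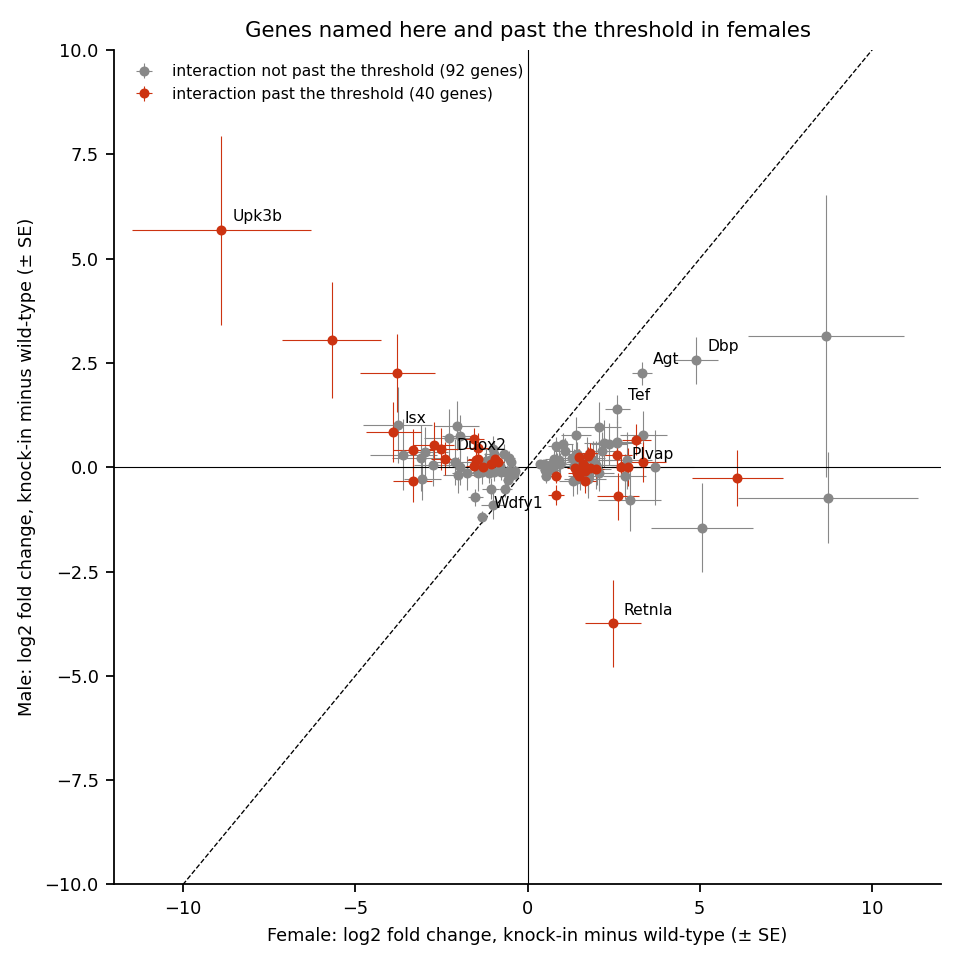
Log2 fold change of knock-in against wild-type in female (x axis) and male (y axis) normal colon for 132 named genes past the threshold in females, with bars of 1 SE and a dashed line of equal effects. For 40 of them the effects differed between the sexes by the interaction test, and Wdfy1, at -1.32 in females and -1.20 in males, lies on the line of equal effects within its error.

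The largest single-gene differences were in part carried by few libraries. The 12 largest increases under the naming rule were Islr2, Ctla2a, Mal, Hlf, Agt, Ltbp2, Alox15, Fat2, Dbp, Aldh3a1, Olfm4 and Serpinb11. Of these, Islr2, Hlf, Agt, Ltbp2, Alox15 and Dbp kept their call with each library left out. Ltbp2, a latent TGF-beta binding protein, stood at 1.14, 1.25 and 0.93 CPM in wild-type and at 17.4, 8.32 and 8.73 CPM in knock-in females, a log2 fold change of 3.36 ± 0.69 (adjusted p = 0.00421). Alox15, a lipoxygenase, had 0.76, 0.98 and 0.77 against 11.8, 6.18 and 7.20 CPM. Fat2, a cadherin of squamous epithelia, had 31.4 and 44.4 CPM in knock-in replicates 1 and b and 3.04 in replicate a, and Serpinb11 had 71, 1 and 110 counts in replicates 1, a and b against none in wild-type. Without replicates 1 and b the log2 fold change of Fat2 was 0.57 (adjusted p = 0.88), that of Ctla2a 0.62 (adjusted p = 0.562) and that of Serpinb11 3.53 (adjusted p = 0.742). Mal and Aldh3a1 kept their size there (2.73 and 4.42) but not their call.

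The 12 largest decreases were Upk3b, Isx, Retnlb, Nov, Mgat4c, Pik3c2g, Socs3, Aqp4, Tmem181c-ps, Duoxa2, Ppy and Slc13a2os. Mgat4c, a glycosyltransferase of N-glycan branching, stood at 138, 353 and 80.5 CPM in wild-type and at 26.5, 17.8 and 11.9 CPM in knock-in females, a log2 fold change of -3.34 ± 0.56 (adjusted p = 0.00136). Pik3c2g, a class II phosphoinositide kinase, had 7.61, 6.41 and 4.49 against 0.71, 0.67 and 0.46 CPM (log2 fold change -3.32 ± 0.59, adjusted p = 0.00144). Retnlb, a goblet cell antimicrobial protein, had 11.8, 5.30 and 2.17 against 0.83, 0.56 and 0 CPM, a call lost without wild-type replicate 1 or knock-in replicate a or b (adjusted p up to 0.0943). Socs3, a feedback inhibitor of cytokine signalling, had 17.1, 191 and 22.8 against 12.1, 9.22 and 5.28 CPM, so wild-type replicate 2 carried most of its difference. Its call was lost without that library or any 1 of the knock-in libraries, and over all alternatives its log2 fold change came as near to 0 as -1.15, with an adjusted p up to 0.283. Slc13a2os is antisense to Slc13a2, and without a stated strand setting their reads cannot be told apart.

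Heat shock genes split by direction. Of 21 tested genes, 3 rose and 4 fell, 33.3% against 16.0% of all genes tested. Hspb8, a small heat shock protein of muscle, rose from 8.29, 5.30 and 14.7 to 31.1, 32.9 and 25.6 CPM (log2 fold change 1.68 ± 0.30, adjusted p = 0.00146), and Hspa4l, an HSP110-type nucleotide exchange factor, fell from 127, 152 and 80.8 to 58.2, 46.3 and 61.9 CPM (log2 fold change -1.11 ± 0.23, adjusted p = 0.00413). Both calls held with each library left out, whereas 2 to 4 genes of the list passed without wild-type replicate 1 or 2 or any 1 of the knock-in libraries, and 2 without knock-in replicates 1 and b. Ion transport genes were mostly level, with 3 of 21 higher and 1 lower, 19.0% against 16.0% of all genes tested. Kcnq1, a basolateral potassium channel, rose from 48.5, 48.9 and 58.8 to 81.5, 97.2 and 88.1 CPM (log2 fold change 0.77 ± 0.13, adjusted p = 0.00104). Respiratory chain genes changed little in size: of 32 genes 4 fell, by 0.42 to 0.54 on the log2 scale. That was 12.5% of the list, against 7.0% lower over all genes tested. By sign 25 of the 32 were lower, with a list median of -0.14. Without overlap 12 of them were lower, against 18.2% of all genes tested. Only 0 or 1 passed the test as lower without wild-type replicate 1 or 2 or any 1 of the knock-in libraries. Of 33 ribosomal protein genes 3 rose, 9.09% against 8.97% higher over all genes tested, and reads of these genes may be shared with their processed copies.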

How the data were processed

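Per the labels' protocols, colon RNA was cleared of ribosomal RNA by RNase H, copied from random hexamers and read on a NovaSeq instrument. The deposited table holds raw counts per gene. Trimmomatic, HISAT2, featureCounts, DESeq2 and build mm10 are named in the submitters' processing notes, without versions. Annotation, strand setting and treatment of multiply matching reads are not given in the sources used here. A second table gives the authors' DESeq2 log2 fold changes and adjusted p-values, as deposited.

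Genes were filtered by filterByExpr and scaled by TMM, and the 21 libraries were fitted with 1 coefficient per group by edgeR 4.0.16 (robust quasi-likelihood F test, two-sided, R 4.3.3), with Benjamini-Hochberg adjustment over all genes tested and a threshold of 0.05. Contrasts were knock-in minus wild-type in females and in males, and their difference. DESeq2 1.42.0 and limma 3.58.1 were alternatives, with other scalings, filters, sets of libraries, GC and length offsets and each library left out. Groups came from the sample labels. A pair of knock-in columns shares a header and was used as unnumbered replicates. Tested on simulated counts for the female contrast (15936 genes, 200 changed), edgeR recovered 54% of genes changed by a log2 of 1 and 84% by a log2 of 2, with 6 false calls.

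Described in the text are App, genes of the sex check, the 12 higher and 12 lower genes with the largest log2 fold change (mean of at least 50 counts in a group, no overlap), up to 4 called genes per list with the smallest p, the extreme interactions and genes called in both sexes. Other list members given with a value were chosen after their values were seen. Members and the 47 lists were chosen with earlier results of these data known. Coordinates and promoters are from RefSeq on GRCm38.p6. Names of further clock genes and some results for single genes are not reported here, and mitochondrially encoded genes are not analysed here.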

Additional observations from a re-analysis of the deposited data

Results flagged for a closer look

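The knock-in minus wild-type difference was not the same in the 2 sexes for 405 genes by edgeR's interaction test, and for 40 of the 132 genes that the naming rule took and that passed in females. Each value that follows is the female minus the male log2 fold change. It was more negative in females for secretory and folding genes: -1.58 for Sytl2, -1.28 for Agr2, -1.67 for Tff3, -2.21 for Clca1, -1.64 for Hspa5, -1.12 for Pdia6 and -0.986 for Pdia4. The oxidase Duox2 was at -2.60, the epithelial transcription factors Isx and Foxa3 at -4.74 and -1.14, and Mgat4c, Pik3c2g, Ppy, Slc13a2os and Tac1 at -3.01, -3.73, -3.25, -2.96 and -1.91.

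The difference was positive for vessel genes, at 2.71 for Plvap, 2.02 for Eng, 1.74 for Tie1 and 1.83 for Flt1, and for matrix genes, at 1.48 for Col6a2, 1.62 for Fn1, 1.46 for Col4a2 and 1.26 for Col6a1. Stromal signals followed, at 2.31 for Wnt5b, 1.58 for Bmp4 and 2.92 for Wnt11. Other positive values were 1.40 for Myocd, 2.01 for Hspb8, 1.70 for Aqp1, 1.50 for Slc4a4, 1.04 for Lrp1, 1.55 for Anpep, 2.49 for Hlf, 3.23 for Alox15 and 3.31 for Ngb.

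Fitted differences of genes with a group at or near 0 counts depend on the prior count and are no bound: -14.6 for Upk3b, -8.74 for Lrrn4, -6.03 for Wt1 and 6.21 for Retnla.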

How the results depend on the processing

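No paired analysis was possible because 2 of the 3 knock-in female columns share the same name, so fewer than 2 replicate numbers can be matched to 1 library each in both female groups. In males, a replicate block gave 3 genes, and 4 with GC and length offsets, against 2 without it. The block fits left out the knock-in females (18 libraries, 15772 genes), so they differ from the main fit in more than the block. Same-numbered male libraries correlated at 0.461, -0.206 and -0.07 in their deviations from the group means, and only the first pair matched best with its own number. So few correlations cannot decide whether the numbers pair the libraries.

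The female count of 2545 was 4457 in limma voom, 1022 to 2745 with each library left out and 957 without knock-in replicates 1 and b. The other 9 alternatives with all replicates gave 2154 to 3054. The male count of 2 was 6 in DESeq2, 1 with only the normal colon groups, and 0 with only the compared groups in edgeR (361 at an unadjusted p under 0.05), and it was 2 to 2 with each library left out. The interaction count of 405 was 920 in DESeq2, 1093 in limma voom, 254 with only the normal colon groups, 91 to 614 with each library left out and 126 without knock-in female replicates 1 and b. Its share of positive calls was 69.4%, 82.2% with library totals and 52.8% with GC and length offsets. The cause of these shifts was not tested.

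Of 132 named genes past the threshold in females, 85 passed in all 10 alternatives with all replicates, 58 with every library left out and 55 in both. None reversed. The total of 6429958 counts in the shallowest library limits genes of few counts.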

Other observations

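The remaining lists gave 3 calls or fewer in 1 direction in the female comparison by edgeR. Of all genes tested there, 16.0% passed, 8.97% higher and 7.0% lower. Of 18 glucocorticoid-responsive genes 3 rose (Klf9, Sgk1 and Tsc22d3), and none passed without wild-type replicate 1 or knock-in replicate a. Of 11 adipocyte genes 3 rose, 27.3% (Lipe, Pnpla2 and Plin4), and none passed without wild-type replicate 2 or knock-in replicate a, without knock-in replicates 1 and b, or with GC and length offsets. Of 12 genes of the renin-angiotensin system 3 rose, 25% (Agt, Anpep and Mme). Of 18 glycolysis and hypoxia genes 3 fell (P4ha1, Hk2 and Pfkp), and 1 did without wild-type replicate 1 or 2. Among junction genes, Cldn5, an endothelial claudin, rose, and Cdh17 and Cldn8, a cadherin and a claudin of epithelium, fell, and neither of the latter passed without wild-type replicate 1 or 2 or knock-in replicate a.

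Of 8 tuft cell genes Plcg2 rose and Trpm5 fell. In the list of 20 immediate early genes Klf2 and Egr3 rose, in that of 23 xenobiotic genes Ephx1 rose and Abcg2 fell, in that of 10 skeletal muscle genes Myh2 rose, and in that of 23 fatty acid oxidation genes Acaa2 rose. In the 17 neutrophil and inflammation genes Tnf fell. Each of these calls was lost with at least 1 library left out. Genes of posterior Hox clusters (11), mast cells (11) and pancreatic acini (2) gave 0 calls in edgeR, DESeq2 and limma voom, and 0 at an unadjusted p under 0.05.

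Ngb, neuroglobin, stood at 0.72, 0.98 and 0.46 CPM in wild-type and at 5.60, 5.40 and 2.53 CPM in knock-in females, without overlap.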
